A study of Mus musculus with 8 samples.

Results

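The data described here are 4 RNA-seq libraries from mouse bone marrow grown for 7 days in GM-CSF at 20 ng/mL, the cultures that the labels call bone marrow-derived dendritic cells (BMDC). The members are every gene of their count table, compared between 2 knockout and 2 control libraries out of 8 libraries in the series; the other 4 are bone marrow macrophage cultures (BMDM) grown in M-CSF at 10 ng/mL. All donors were C57BL/6 mice homozygous for a loxP-flanked Trpv2 allele. The controls carried that allele alone (Trpv2fl/fl), and the knockouts also carried Cre recombinase in the Lyz2 locus (Lyz2-Cre;Trpv2fl/fl). Each library stands for a separate mouse according to the design text. Of 14755 genes listed for these cultures, 11357 had enough reads to be tested. The Cre allele and the loss of Trpv2 go together in every knockout library, and their effects cannot be told apart.

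Trpv2 encodes a cation channel of the TRP family that lets calcium through the plasma membrane and endosomal membranes of myeloid cells. Lyz2 encodes lysozyme M, an abundant bacteriolytic enzyme of macrophages and granulocytes, and Cre placed in its locus is active in those cells and in part of the dendritic cells. GM-CSF cultures of bone marrow are mixtures in which cells with macrophage traits and cells with dendritic traits grow side by side. NRF2 is a transcription factor that is released from KEAP1 under oxidative stress and turns on genes for glutathione synthesis, thioredoxin recycling and quinone detoxification. Type I interferons act through a receptor shared by all of them and turn on antiviral genes, many of which carry interferon-stimulated response elements in their promoters.

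Levels are TMM-scaled CPM, a count divided by the scaled library total. A run of 4 values gives both controls first (1, then 2) and both knockouts after them (1, then 2). Library totals ran from 16868675 to 19463457 counts. The cultures carried macrophage markers at high level. The macrophage adhesion receptor gene Adgre1 stood at 1740, 1067, 1777 and 1359 CPM, and the M-CSF receptor gene Csf1r at 2100, 1344, 1534 and 1918 CPM. Of the markers that define conventional dendritic cells, Itgax (the CD11c integrin chain) was present at 64.4, 72.9, 118 and 204 CPM. Flt3 stood at or under 0.391 CPM in each library, Zbtb46 at or under 0.888 CPM and Cd209a at or under 0.445 CPM. Of the defining markers Flt3, Zbtb46 and Cd209a were at or near 0, and the libraries are called GM-CSF cultures below. In bulk RNA, fewer cells of a type and less RNA per cell cannot be told apart.

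Knockout 2 stood apart from the other libraries. Over tested genes its Spearman correlation with them was 0.895 to 0.909, against 0.980 to 0.985 among the other 3. It was the highest library by at least 2-fold for 969 genes (8.53%) and the lowest by at least 2-fold for 1168 genes (10.3%); at 4-fold these counts were 136 (1.2%) and 67 (0.59%). For knockout 1 these counts were 45 (0.396%) and 22 (0.194%). For control 1 they were 29 (0.255%) and 140 (1.23%), and for control 2 they were 32 (0.282%) and 60 (0.528%). Values are therefore given library by library, and a gene is called shifted alike where both knockouts lay at least 1.5-fold above, or below, both controls on log2(CPM + 0.5).

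The genes at the recombined loci were low in both knockout libraries. Trpv2 (ENSMUSG00000018507, chromosome 11) stood at 187, 244, 37.0 and 57.0 CPM, so that the knockouts held 21.8% of the control mean (log2 fold change −2.20, SE 0.42). Lyz2 (ENSMUSG00000069516, chromosome 10) stood at 17990, 20070, 107 and 205 CPM, or 0.82% of control (log2 −6.93, SE 0.68). The groups did not overlap for either gene, and knockout 2 kept somewhat more of both transcripts than knockout 1. Lyz1, the neighbouring paralog that encodes lysozyme P, was close to the detection floor at 0.949, 1.63, 0.313 and 0.494 CPM. Reads of the nearly identical lysozyme genes could have been split by the counting, so the value of Lyz1 is uncertain. Lrmda (ENSMUSG00000063458, chromosome 14), a gene named for its role in melanocyte differentiation, stood at 12.9, 11.4, 2.19 and 3.46 CPM, 23.2% of control (log2 −2.11, SE 0.48). The authors' deposited table puts Lyz2 at −6.94 on the log2 scale (adjusted p = 5.16e-19), 1 gene in all with an adjusted p under 0.05. Trpv2 stood in the authors' deposited table at −2.21 (adjusted p = 0.397).

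Across all genes, no difference passed the main test, although the groups lay far apart for Lyz2. That test, edgeR's quasi-likelihood F test adjusted by Benjamini-Hochberg, passed 0 of 11357 genes at 0.05 (0%), and Lyz2 had an adjusted p of 0.54; at an unadjusted p under 0.05 there were 116 higher (1.02%) and 12 lower (0.106%). DESeq2 passed 6 genes (0.0528%). Those 6 were Lyz2, Trpv2 and a predicted gene on the lower side and Slamf9, Ms4a14 and Ccl17 on the higher side. Slamf9 was high mainly in knockout 2 (1.56, 1.88, 3.60 and 37.8 CPM). Limma-voom passed 0. Without knockout 1, edgeR passed 3215 genes and without knockout 2 it passed 0, so the count of calls turned on which knockout library was kept. What follows describes levels and gaps between libraries; of the genes named, none passed the edgeR test in the fit of all 4 libraries.

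Both knockouts lay above both controls for 1433 genes (12.6%) and below both for 1426 genes (12.6%). Shifts of at least 1.5-fold were fewer, with 115 genes higher (1.01%) and 28 lower (0.247%). Leaving out knockout 2 and asking the same of knockout 1 alone gave 310 higher and 148 lower genes. Leaving out knockout 1 and asking it of knockout 2 alone gave 2394 and 2586. Measured from the nearer control to the nearer knockout, the gap was 87.7-fold for Lyz2, 3.26-fold for Trpv2 and 3.01-fold for Lrmda.

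Beside the recombined loci, the following genes were lower in both knockouts by at least 1.5-fold. Fam167a stood at 36.6, 38.5, 19.1 and 11.0 CPM (log2 −1.32, SE 0.41). Its controls lay close together, and both knockouts lay below them, with knockout 2 the lowest library. The docking protein gene Dok4 (4.74, 4.60, 1.98 and 2.19 CPM) and the zinc finger gene Zfp189 (6.75, 7.32, 3.18 and 3.39 CPM) had nearly the same level in both knockouts. So did Cgas, the cytosolic DNA sensor that makes the STING ligand, at 19.7, 18.4, 11.4 and 11.7 CPM, and Ifnlr1, a chain of the interferon lambda receptor, at 11.7, 11.7, 7.26 and 6.92 CPM. Cgas is itself inducible by interferon in mouse cells. Unlike the antiviral genes described below it was not high in knockout 2. Ak4, a mitochondrial adenylate kinase gene, stood at 21.6, 20.5, 12.9 and 10.3 CPM. Cdca7, a cell division gene, stood at 9.82, 10.7, 5.53 and 4.45 CPM. Of the 42 tested genes in the cell cycle list below, 16 were higher in both knockouts and 0 lower. At lower level, Sparc (3.29, 3.07, 1.36 and 0.282 CPM), which encodes a matrix glycoprotein, and the steroid reductase gene Srd5a1 (2.62, 1.58, 0.731 and 0.282 CPM) were also lower in both.

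The following genes were higher in both knockouts by at least 1.5-fold. Clec12a, an inhibitory lectin receptor that senses dying cells, stood at 35.9, 41.2, 89.4 and 124 CPM (log2 1.47, SE 0.36), and its lower knockout was 2.16-fold above its higher control. Ms4a14, a tetraspan gene of the MS4A family, stood at 9.49, 6.18, 26.9 and 50.7 CPM (log2 2.31, SE 0.48). The tetraspan pair Tmem176a (1.84, 3.12, 7.62 and 9.10 CPM) and Tmem176b (4.41, 5.64, 12.01 and 14.96 CPM), showed the same order with narrower differences between the knockouts. Havcr2, which encodes the checkpoint receptor TIM-3, stood at 15.9, 17.0, 29.3 and 53.8 CPM. Cd72, an inhibitory lectin-like receptor gene, varied so much between the controls (15.0, 3.41, 29.8 and 68.9 CPM) that the gap was set by control 1 alone.

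Further genes shifted upward were of other kinds. Dennd1c, an activator of Rab GTPases, stood at 38.3, 32.9, 68.9 and 128 CPM (log2 1.47, SE 0.42), and Rab44, a large Rab GTPase gene, at 12.7, 20.4, 42.0 and 45.3 CPM (log2 1.40, SE 0.39). The secreted ribonuclease gene Rnase4 stood at 7.53, 7.12, 18.7 and 62.0 CPM (log2 2.46, SE 0.62), with more than 3 times as much in knockout 2 as in knockout 1. Properdin, the positive regulator of the alternative complement pathway encoded by Cfp, stood at 320, 452, 733 and 1672 CPM. Ceruloplasmin (Cp), a copper-carrying ferroxidase, was even between knockouts at 5.97, 5.44, 13.2 and 11.6 CPM. The dipeptidase gene Dpep3 (0.614, 0.396, 2.82 and 6.14 CPM) and the synaptic scaffold gene Tspoap1 (0.837, 0.742, 3.60 and 4.09 CPM) had wide gaps at a low level, where counting error is large.

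**Figure D1:**
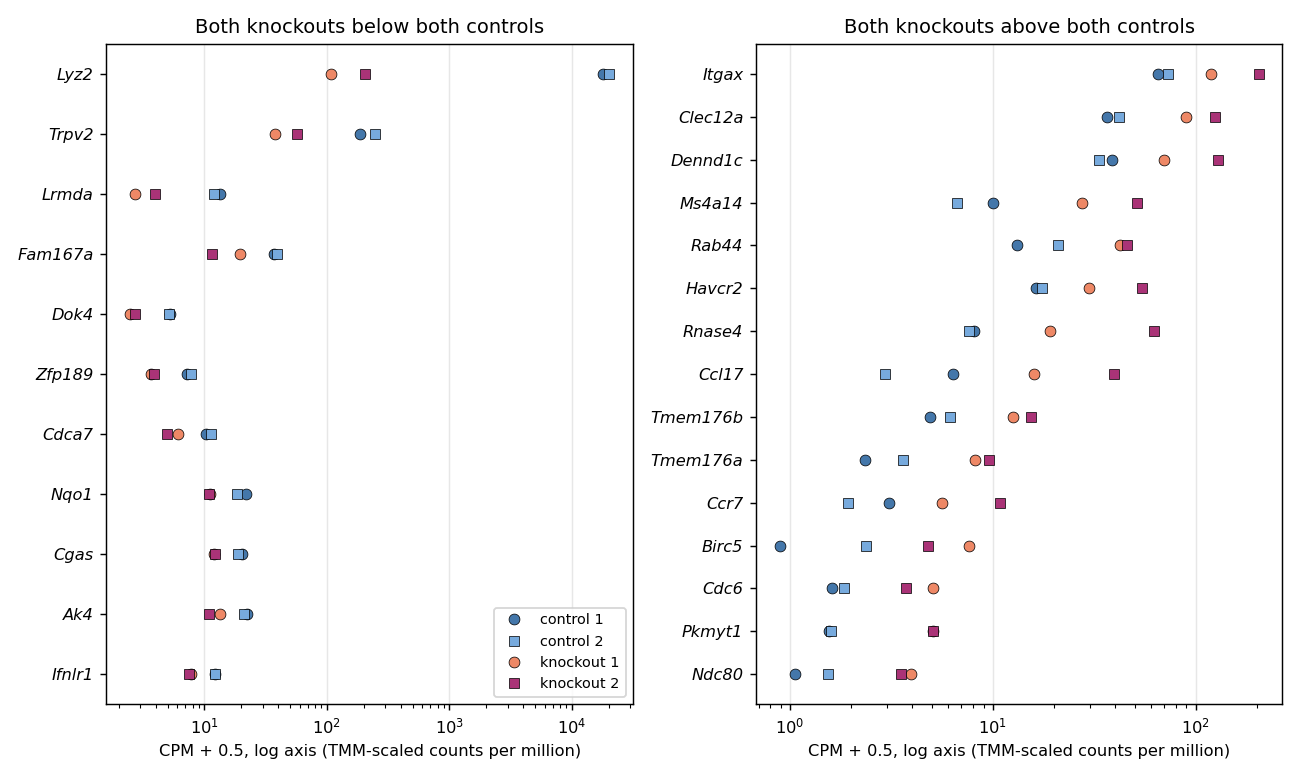
Level of 11 genes lower (left) and 15 genes higher (right) in both knockouts of the GM-CSF cultures, as CPM + 0.5 on a log axis. Each symbol is 1 library; the knockout symbols lie to the left of both controls on the left and to the right of them on the right, and for genes such as Itgax and Rnase4 knockout 2 lies farther out than knockout 1.

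The stress genes were examined by a list of 41 oxidative stress genes that NRF2 is known to control or that feed the same reactions, of which 40 were tested. Both knockouts lay below both controls for 12 of the 40, against 12.6% of all tested genes, and above both for 1, the NRF2 target gene Osgin1 (29.4, 28.1, 37.5 and 43.4 CPM). Of the 40 genes 0 passed the edgeR test. The shift of at least 1.5-fold was reached by 1 of them, Nqo1, and the others differed less in at least 1 knockout. Nqo1 encodes a quinone reductase that is a standard readout of NRF2; it stood at 21.2, 18.1, 10.7 and 10.4 CPM (log2 −0.90, SE 0.37). Both knockouts held nearly the same amount of it, 53.7% of the control mean.

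The 12 genes lower in both knockouts came from several arms of the response. In glutathione synthesis and use they were Gclm, the modifier subunit of the rate-limiting ligase (192, 242, 145 and 83.8 CPM; log2 −0.93, SE 0.43), the cystine importer gene Slc7a11 (670, 583, 552 and 179 CPM), the glutathione reductase gene Gsr (440, 378, 324 and 133 CPM), the transferase gene Mgst1 (165, 135, 118 and 109 CPM) and the conjugate exporter gene Abcc1 (260, 280, 238 and 114 CPM). Gclm, Gsr, Slc7a11 and Abcc1 were much lower in knockout 2 than in knockout 1, whereas Mgst1 was nearly even. In the thioredoxin system, the reductase gene Txnrd1 stood at 357, 401, 255 and 110 CPM (log2 −1.06, SE 0.50), and sulfiredoxin (Srxn1), which repairs peroxiredoxins, at 147, 174, 99.2 and 131 CPM. Catalase (Cat) stood at 281, 309, 213 and 139 CPM. Heme oxygenase (Hmox1) stood at 653, 775, 566 and 575 CPM, and the pentose phosphate enzyme gene Pgd at 819, 804, 615 and 669 CPM. The autophagy receptor gene Sqstm1, the last of the 12, stood at 1499, 1558, 1046 and 1485 CPM. For Slc7a11, Mgst1, Srxn1, Hmox1 and Sqstm1 the nearer knockout lay closer to the nearer control than the controls lay to each other. This distance was smallest for Sqstm1 in knockout 2. For Gclm, Gsr and Abcc1 the distance was similar to that between the controls.

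The list as a whole differed between the knockouts. As deviations from the mean control level, the 2 knockout medians were −0.34 (library 1) and 0.16 (library 2), and the control medians 0.02 and −0.02, beside medians of all tested genes within 0.01 of 0 in each library. Knockout 1 lay below both controls for 30 of the 40 genes (75%), against 31.7% of all tested genes, and knockout 2 for 17 of them (42.5%), against 43.6%. The members high in knockout 2 included the ferritin chains Ftl1 (3919, 5083, 3480 and 14010 CPM) and Fth1 (42380, 39660, 31810 and 80510 CPM), which store iron, and the peroxidase genes Gpx1 (771, 681, 721 and 1713 CPM) and Gpx4 (366, 357, 292 and 773 CPM). These transcripts are short, and short transcripts as a class were high in knockout 2, as described below. With the trend over gene length removed from each library, the list medians were −0.33 in knockout 1 and −0.28 in knockout 2, and 16 of 40 genes were lower in both, against 14.6% of all tested genes. Of the regulators, Nfe2l2, which encodes NRF2, stood at 423, 408, 473 and 336 CPM, and Keap1 at 45.8, 48.4, 39.8 and 79.4 CPM. The knockouts lay on opposite sides of the controls for both.

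Promoter windows of RefSeq (GRCm38.p6, 250 bases before to 50 after the transcript start) were searched on both strands for the core of the antioxidant response element, TGACNNNGC, the letters that NRF2 binds with small MAF proteins. The core was present for 12 of 35 oxidative stress genes with a window (34.3%), for 17.4% of 9182 tested genes with one and for 14% of 27025 RefSeq genes. The windows of Gclm and Txnrd1 are shown because these genes were lower in both knockouts and carry the core, in capitals, with its first base at −134 and −92 from the start; that of Nqo1 holds no such letters. Txnrd1 has 3 windows, of which 1 holds the core.
Gclm (chr3:122245307-122245606, plus strand): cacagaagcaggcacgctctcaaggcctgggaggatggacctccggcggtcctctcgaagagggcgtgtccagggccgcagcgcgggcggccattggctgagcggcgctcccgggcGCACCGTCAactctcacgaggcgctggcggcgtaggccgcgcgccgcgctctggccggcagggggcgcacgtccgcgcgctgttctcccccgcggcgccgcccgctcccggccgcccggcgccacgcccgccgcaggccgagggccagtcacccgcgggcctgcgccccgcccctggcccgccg
Txnrd1 (chr10:82858956-82859255, plus strand): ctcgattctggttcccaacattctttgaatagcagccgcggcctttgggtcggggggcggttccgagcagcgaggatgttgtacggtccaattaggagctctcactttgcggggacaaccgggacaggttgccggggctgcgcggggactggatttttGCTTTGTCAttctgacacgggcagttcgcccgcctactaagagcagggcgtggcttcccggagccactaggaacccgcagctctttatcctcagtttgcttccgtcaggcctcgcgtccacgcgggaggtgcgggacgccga

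The median heat shock gene lay slightly below control in both knockouts. Of 22 listed chaperone genes 20 were tested, 4 were lower in both knockouts and 0 higher in both (12.6% of all tested genes in each direction), and 0 were shifted by 1.5-fold, with a median log2 fold change of −0.12 against 0.02 for all tested genes. The 4 were Hsph1, an HSP110 exchange factor (47.6, 50.9, 38.7 and 26.2 CPM), the cytosolic HSP90 gene Hsp90ab1 (1021, 1017, 768 and 838 CPM), the mitochondrial chaperonin gene Hspd1 (175, 153, 147 and 91.9 CPM) and Chordc1, an HSP90 cochaperone gene (59.6, 66.7, 59.2 and 38.5 CPM). The controls of Hsp90ab1 nearly coincided, and the gap from nearer control to nearer knockout was about as wide for Hsph1. The stress-inducible chaperones themselves were low and without order: Hspa1a stood at 0.558, 0.692, 0.574 and 1.20 CPM and Hspa1b at 2.07, 1.39, 0.835 and 2.61 CPM. The median of the list was −0.17 in knockout 1, which lay below both controls for 14 of 20 genes (70%, against 31.7% of all tested genes), and −0.10 in knockout 2, which did so for 9 (45%, near the 43.6% of all tested genes).

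Other stress programmes are given by their counts, to be read against 12.6% of all tested genes in each direction. Of 18 genes of the unfolded protein response, which relieves misfolding in the endoplasmic reticulum, 1 was lower in both knockouts (Hyou1, 178, 177, 163 and 112 CPM) and 0 were higher. Of 28 genes controlled by ATF4, the transcription factor of amino acid shortage, 3 were lower and 1 higher; with the length trend removed, 9 were lower and 1 higher, against 14.6% and 13.6% of all tested genes. The largest of these differences was Ddit4, an mTOR inhibitor gene, at 17.9, 27.7, 12.6 and 9.39 CPM (log2 −1.05, SE 0.42), and the serine synthesis gene Psat1 was the higher one (10.3, 12.3, 15.6 and 16.2 CPM). Ddit3, which encodes the CHOP factor, was high in knockout 2 alone (20.1, 27.2, 18.9 and 104 CPM). Of 12 p53 target genes 0 were shifted in both knockouts in either direction. Among 23 hypoxia and glycolysis genes 4 were lower in both (6 with the length trend removed), of which Bnip3, a mitophagy receptor gene, stood at 35.3, 35.0, 25.9 and 13.1 CPM and the prolyl hydroxylase gene Egln3 at 70.9, 96.6, 55.9 and 52.5 CPM. Of 14 immediate early genes, Ier3 (253, 232, 169 and 178 CPM) and Btg2 (42.5, 50.7, 40.4 and 31.4 CPM) were lower in both.

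**Figure D2:**
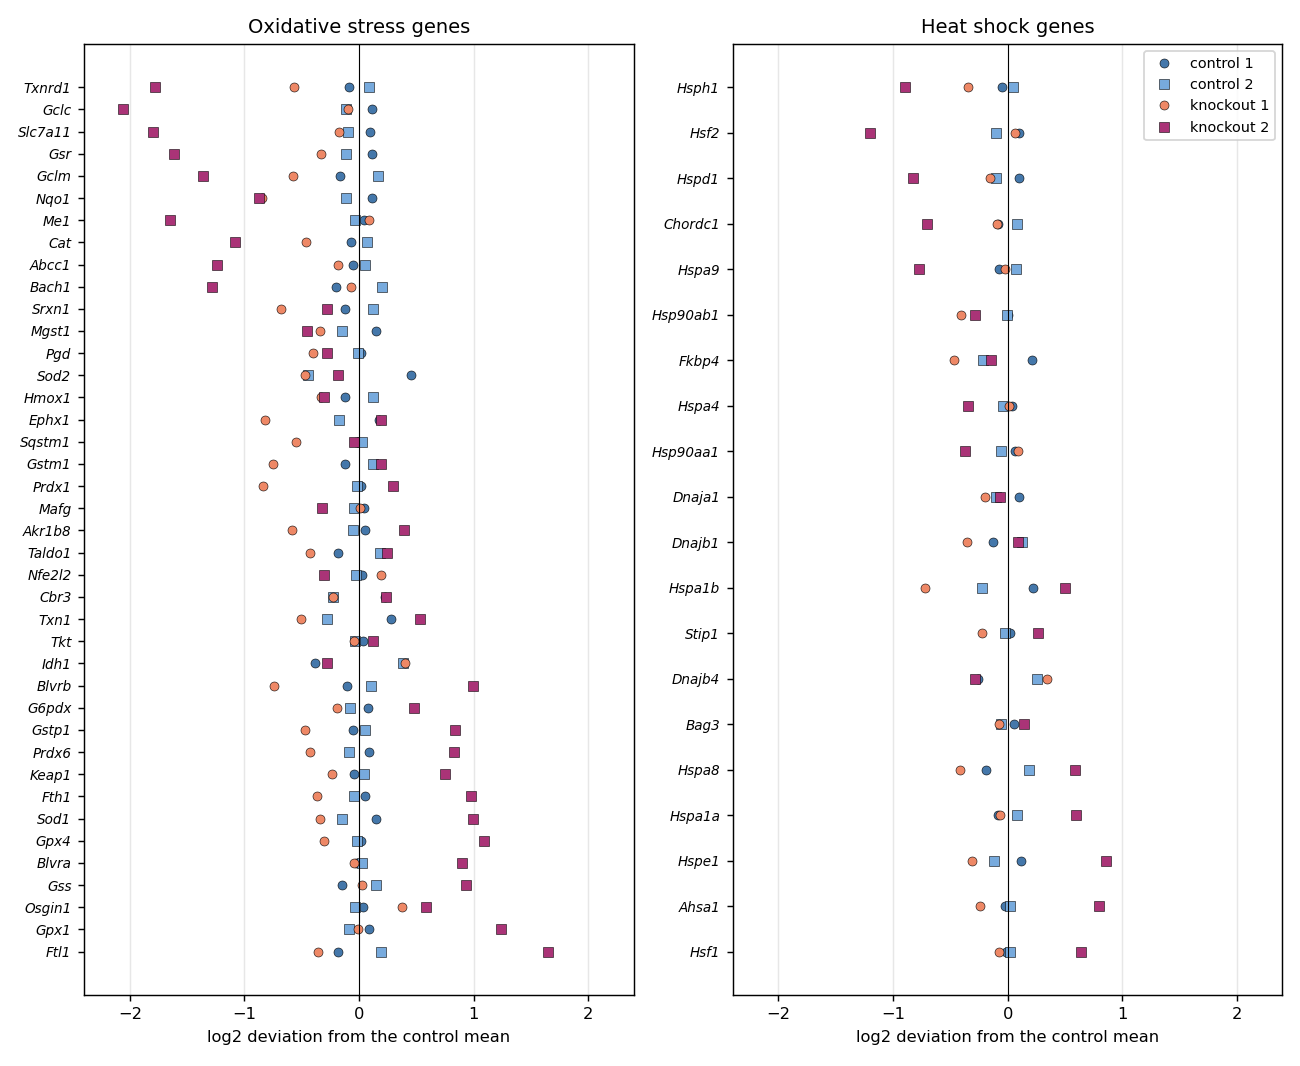
Log2 deviation from the control mean of each tested oxidative stress gene (left) and heat shock gene (right), 1 symbol per library. Nqo1, Gclm and Txnrd1 lie left of both controls in both knockouts, while Ftl1, Fth1 and Gpx4 are high in knockout 2 and at or below control in knockout 1.

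Of all lists, cell cycle genes had the largest number of members higher in both knockouts. Of 42 tested, 16 lay above both controls in both knockouts (12.6% of all tested genes did), 0 lay below, 4 were shifted by at least 1.5-fold and 0 passed the edgeR test. By library the median deviation was −0.30 for control 1, 0.30 for control 2, 0.90 for knockout 1 and 0.41 for knockout 2. With the length trend removed, knockout 2 stood at 0.28, below control 2 at 0.31, and knockout 1 at 0.92. The controls thus differed by more than the distance from control 2 to knockout 2. Knockout 1 lay above both controls for 33 of 42 genes (78.6%), against 32.3% of all tested genes. Knockout 2 did so for 19 (45.2%), near the 43.1% of all tested genes. In knockout 1, 7 of the 42 were at least 2-fold above every other library, against 0.396% of all tested genes.

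By role, 7 of 18 replication genes, 7 of 18 mitosis genes and 2 of 6 genes of the G1/S switch were higher in both knockouts. Cdc6, which loads the replicative helicase, stood at 1.12, 1.34, 4.54 and 3.25 CPM (ratio of knockout to control 3.18). The thymidine kinase gene Tk1 stood at 5.25, 2.57, 12.7 and 8.33 CPM, and the mitotic kinase gene Aurkb at 3.29, 2.67, 5.69 and 5.29 CPM. Birc5, the survivin subunit of the chromosomal passenger complex, stood at 0.391, 1.88, 7.15 and 4.30 CPM. Outside the list, the CDK1 inhibitor kinase gene Pkmyt1 had the widest gap of all named higher genes: 1.06, 1.09, 4.59 and 4.59 CPM (log2 2.09, SE 0.56), 3.20-fold from the higher control to the lower knockout. The kinetochore genes Ndc80 (0.558, 1.04, 3.45 and 3.03 CPM) and Nuf2 (0.391, 1.43, 6.16 and 3.60 CPM) and the B-MYB gene Mybl2 (1.17, 2.27, 5.12 and 8.68 CPM) followed the same order. All of these genes were expressed at a few CPM.

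Several cell cycle genes were high in knockout 1 alone. Bub1, a spindle checkpoint kinase gene, stood at 0.726, 1.34, 5.53 and 0.988 CPM, the cytokinesis gene Anln at 0.391, 2.08, 7.47 and 0.776 CPM, and Clspn, a replication checkpoint adaptor gene, at 1.28, 2.08, 7.83 and 0.847 CPM. Knockout 2 lay between the controls for Bub1 and Anln and below both for Clspn. Outside the cell cycle, the calcium buffer gene Calb2 (2.79, 0.643, 17.3 and 2.68 CPM) and Igfbp5, an insulin-like growth factor binding protein gene (2.23, 0.643, 8.46 and 2.05 CPM), were also high in knockout 1 alone.

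The E2F site, searched as TTTCCCGC or TTTGGCGC on both strands in the same windows, was present for 8 of 34 cell cycle genes with a window (23.5%) and for 3.55% of tested genes. E2F factors drive genes of the G1/S switch. The cell cycle homology region TTTGAA was present for 13 of 34 (38.2%), against 14.5% of tested genes. The window of Cdc6 is shown for its E2F match, in capitals, which starts at −138.
Cdc6 (chr11:98907901-98908200, plus strand): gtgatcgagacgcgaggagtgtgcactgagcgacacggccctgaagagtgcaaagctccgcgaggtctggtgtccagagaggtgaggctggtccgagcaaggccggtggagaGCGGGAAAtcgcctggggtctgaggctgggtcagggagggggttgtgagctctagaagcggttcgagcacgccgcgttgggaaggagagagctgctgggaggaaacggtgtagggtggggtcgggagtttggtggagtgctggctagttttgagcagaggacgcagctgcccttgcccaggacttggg

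Of 18 tested dendritic cell markers 4 lay above both controls in both knockouts, 0 lay below and 3 were shifted upward by at least 1.5-fold, against 12.6%, 12.6% and 1.01% of all tested genes. Itgax, whose values are given above, differed by 1.23 on the log2 scale (SE 0.41), with a gap of 1.61-fold between control 2 and knockout 1. Ccl17, a chemokine made by mature dendritic cells that draws CCR4-bearing T cells, stood at 5.86, 2.42, 15.4 and 39.2 CPM (log2 2.72, SE 0.67). Ccr7, the receptor that guides dendritic cells to lymph nodes, stood at 2.57, 1.43, 5.12 and 10.3 CPM. In both genes knockout 1 was clear of the controls and knockout 2 stood higher again.

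Genes of MHC class II, which presents antigen to CD4+ T cells, were higher in both knockouts for 5 of 16 tested genes (12.6% of all tested genes), with 0 shifted by 1.5-fold. The chain genes stood at 51.0, 63.6, 80.5 and 115 CPM for H2-Aa, at 92.7, 79.7, 101 and 231 CPM for H2-Ab1 and at 22.6, 42.2, 51.3 and 102 CPM for H2-Eb1. Knockout 1 lay above the higher control in each, and knockout 2 was the highest library. The loading chaperone gene H2-DMa was high in knockout 2 alone, at 21.9, 41.5, 37.6 and 167 CPM. Of 13 costimulatory and coinhibitory ligand genes 3 were higher in both, beside the same 12.6%, among them Cd86 at 47.1, 59.2, 76.8 and 121 CPM.

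In the list of lectin and inhibitory receptor genes, 9 of 28 tested members were higher in both knockouts and 1 was lower. Past 1.5-fold were Clec12a and Ms4a14, the latter a tetraspan gene and not a lectin. All tested genes gave 12.6% in each direction and 1.01% past 1.5-fold upward. Among the others, the lectin receptor gene Clec4a2 stood at 158, 171, 245 and 278 CPM and the MHC class I receptor gene Pirb at 254, 271, 329 and 564 CPM. Of 22 phagocytosis and scavenger receptor genes 7 were higher and 1 was lower, to be read against the same shares. The integrin chain gene Itgam stood at 481, 509, 748 and 715 CPM, and Stab1, a scavenger receptor gene, at 84.6, 141, 183 and 279 CPM. Trem2, a lipid receptor gene of macrophages, reached 1473 CPM in knockout 2 against 252, 347 and 352 CPM in the other libraries. Of 26 chemokine genes 4 were higher in both knockouts (12.6% of all tested genes were). In knockout 2, 11 were at least 2-fold above every other library (8.53% of all tested genes). Ccl17 and Pf4 fall in both counts. After removal of the length trend, 6 were at least 2-fold above in knockout 2 and 5 at least 2-fold below. The shares of all tested genes were then 6.08% and 6.12%.

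The interferon programme was high in knockout 2 and low in knockout 1. Of 54 listed interferon-stimulated genes 47 were tested, and knockout 2 exceeded every other library at least 2-fold for 45 of them (8.53% of all tested genes). Knockout 1 was the lowest library for 43, against 2409 of all 11357 tested genes. It was at least 2-fold below every other for 12 (0.194% of all tested genes), while 0 of 47 were shifted alike. The list medians were 0.16, −0.16, −0.88 and 3.05. Their summed level was 3679, 2842, 1884 and 25610 CPM.

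The antiviral effectors showed the widest range. Isg15, a ubiquitin-like modifier, stood at 55.8, 31.7, 8.14 and 780 CPM. Ifit3, an RNA-binding antiviral factor, stood at 47.0, 23.2, 6.47 and 1327 CPM. Rsad2 (viperin) stood at 62.5, 50.01, 15.2 and 669 CPM. For each, the library labelled knockout 1 was below both controls and knockout 2 was more than 10 times above them. Irf7, the factor that amplifies interferon production, stood at 102, 71.5, 33.5 and 2097 CPM. The chemokine gene Cxcl10 stood at 4.58, 10.3, 3.13 and 401 CPM.

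The ligand genes themselves were read almost only in knockout 2. Ifnb1, which encodes interferon beta, had 7, 0, 1 and 133 reads, the last equal to 9.39 CPM. The interferon alpha genes Ifna1, Ifna2, Ifna4 and Ifna5 had 0 reads in each of the other libraries and 12, 24, 29 and 54 reads in knockout 2. At these totals, 0 reads allow a level of up to 0.178 CPM in control 1. The alpha genes are near-identical copies, and reads could have been split among them. The interferon gamma gene Ifng had 1, 2, 4 and 4 reads.

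Genes of MHC class I presentation, an interferon-responsive set, followed the same split. Knockout 2 was at least 2-fold above every other library for 18 of 20 genes (8.53% of all tested genes). With the length trend removed it was so for 13, against 6.08% of all tested genes. Knockout 1 was the lowest library for 18, against 2409 of all 11357 tested genes. The immunoproteasome gene Psmb8 stood at 38.6, 29.9, 23.3 and 270 CPM and the peptide transporter gene Tap1 at 78.2, 80.6, 53.7 and 471 CPM. In all, 484 tested genes (4.26%) were at least 2-fold above the others in knockout 2 and lowest in knockout 1; 41 of the 47 interferon-stimulated genes were among them. The knockout medians of the interferon list with the length trend removed were −0.81 and 2.81.

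The interferon-stimulated response element, searched as GAAANNGAAA on both strands, was present for 26 of 40 interferon-stimulated genes with a window (65%) and for 3.96% of tested genes. Among 107 genes with a window that were at least 4-fold above the others in knockout 2 it was present for 35 (32.7%). That set was chosen by its level in knockout 2 and holds Isg15, Ifit3, Rsad2 and other interferon-stimulated genes. Its share is therefore not separate from that of the list. Among 89 genes shifted alike upward the element was present for 5 (5.62%). The windows of Isg15, Ifit3 and Rsad2 are shown because these genes span the range between the knockouts; capitals mark the matches. Isg15 has 3 matches that overlap one another, starting at −78, −72 and −66. Ifit3 has matches at −156 and −122, and Rsad2 at −120.
Isg15 (chr4:156200769-156201068, minus strand): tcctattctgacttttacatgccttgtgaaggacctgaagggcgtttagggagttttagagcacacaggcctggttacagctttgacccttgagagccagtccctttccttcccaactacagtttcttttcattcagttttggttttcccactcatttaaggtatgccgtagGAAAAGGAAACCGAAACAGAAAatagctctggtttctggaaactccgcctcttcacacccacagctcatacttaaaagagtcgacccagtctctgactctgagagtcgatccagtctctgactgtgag
Ifit3 (chr19:34583279-34583578, plus strand): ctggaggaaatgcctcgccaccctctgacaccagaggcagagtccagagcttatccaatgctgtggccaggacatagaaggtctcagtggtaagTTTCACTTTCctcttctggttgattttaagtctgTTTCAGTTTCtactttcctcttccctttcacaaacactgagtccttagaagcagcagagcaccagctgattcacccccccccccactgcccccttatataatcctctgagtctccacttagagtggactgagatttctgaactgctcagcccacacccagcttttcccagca
Rsad2 (chr12:26456403-26456702, minus strand): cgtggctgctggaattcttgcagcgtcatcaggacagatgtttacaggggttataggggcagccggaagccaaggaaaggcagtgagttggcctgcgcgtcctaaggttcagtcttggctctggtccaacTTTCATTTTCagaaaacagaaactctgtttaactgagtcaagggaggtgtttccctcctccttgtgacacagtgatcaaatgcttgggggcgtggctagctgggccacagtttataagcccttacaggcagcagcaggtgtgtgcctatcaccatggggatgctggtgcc

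**Figure D3:**
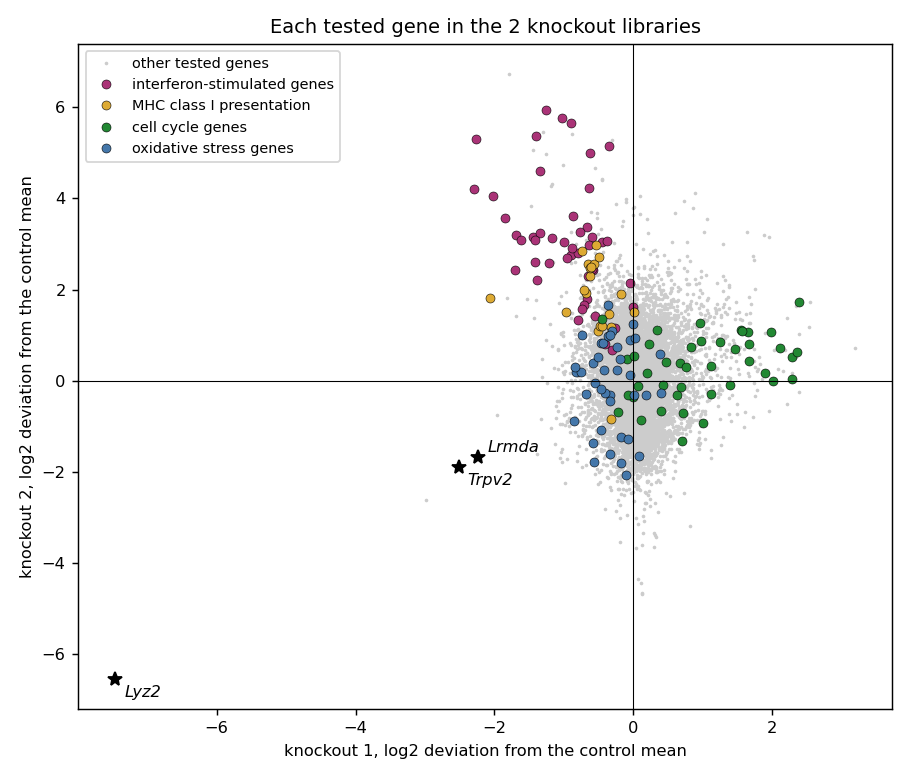
Log2 deviation from the control mean of each tested gene in knockout 1 (horizontal) and knockout 2 (vertical); both share the same controls. Interferon-stimulated and MHC class I genes lie at upper left, cell cycle genes extend to the right, and Lyz2, Trpv2 and Lrmda, marked by stars, lie at lower left.

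Knockout 2 also differed by transcript length. In the quintile of shortest genes (243 to 2553 bases) its median deviation from the control mean was 0.69, and in that of the longest (7674 to 123179 bases) it was −0.65. The medians of knockout 1 ran the other way and were small, from −0.12 to 0.11, and those of the controls were within 0.02 of 0. In the shortest quintile 22.5% of genes were at least 2-fold above the others in knockout 2 and 1.19% below; in the longest these shares were 0.968% and 24.6%. The part of gene length in the results for knockout 2 was not tested beyond the length-adjusted values given. With the length trend removed, 691 genes were at least 2-fold above the others in knockout 2 (6.08%) and 695 at least 2-fold below (6.12%).

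**Figure D4:**
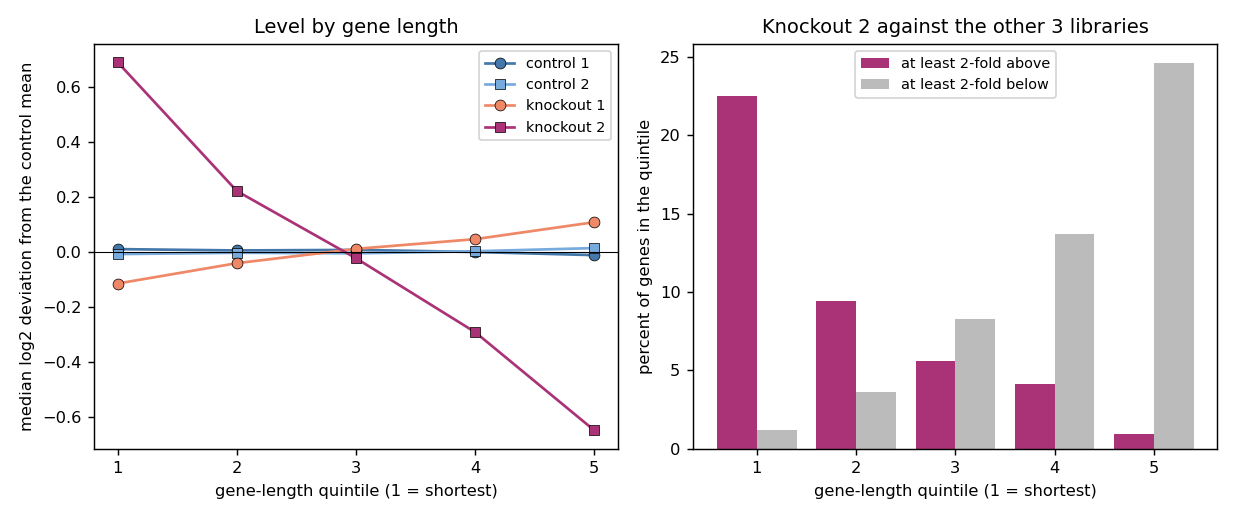
Left, median log2 deviation from the control mean by gene-length quintile for each library. Right, percent of genes in each quintile that were at least 2-fold above or below every other library in knockout 2; the share above goes from 22.5% to 0.968% and the share below from 1.19% to 24.6%.

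Some genes were nearly absent from knockout 2, and those named here were picked for their wide gaps. The genes at least 2-fold below the others in knockout 2 had a median length of 7417 bases. That of all tested genes was 4517 bases. The part of length in the levels of the named genes was not tested. The copper pump gene Atp7a stood at 18.8, 27.8, 25.1 and 0.423 CPM. The deubiquitinase gene Usp33 stood at 22.8, 25.7, 26.2 and 0.635 CPM, and the phosphoinositide phosphatase gene Sacm1l at 26.6, 33.1, 31.2 and 0.988 CPM. For all of them the other 3 libraries were close together. Pik3c2a, a lipid kinase gene, stood at 29.3, 33.2, 38.7 and 2.05 CPM, and the DNA damage kinase gene Atm at 15.9, 13.5, 18.01 and 0.988 CPM. Ribosomal and respiratory genes were more often high there. In knockout 2, 15 of 40 ribosomal protein genes were at least 2-fold above the others, with Rps29 at 83.1, 90.9, 64.9 and 344 CPM. So were 11 of 28 nuclear oxidative phosphorylation genes, against 8.53% of all tested genes. With the length trend removed, these counts were 4 and 2, near the 6.08% of all tested genes. The mitochondrial share of all counts was 1.04%, 2.04%, 1.78% and 1.41%.

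Markers of other cells differed between libraries of the same group. Neutrophil genes summed to 1390, 813, 1461 and 2139 CPM. Their median deviations from the control mean were −1.12, 1.12, −0.11 and 1.52, so the sum and the median ordered the controls differently. Within the list the granule protease gene Elane stood at 0, 1.98, 0.157 and 5.08 CPM and Mpo at 0, 1.14, 0.365 and 4.09 CPM. B and plasma cell markers summed to 1.34, 4.11, 3.71 and 31.8 CPM, with the receptor chain gene Cd79a at 0.391, 0.791, 0.574 and 12.8 CPM. Both lists were highest in knockout 2. Of 4 tested B cell markers 2 were higher in both knockouts, too few members to set apart from the 12.6% of all tested genes. Mast cell, basophil and eosinophil markers summed to 99.4, 197, 112 and 71.5 CPM. Their median deviations were −1.05, 1.05, 0.08 and 1.615, so knockout 2 was lowest by the sum and highest by the median. T and NK cell markers summed to between 2.62 and 6.83 CPM and erythroid markers to between 0.223 and 1.13 CPM. Stromal markers summed to 8.37, 14.0, 15.4 and 2.19 CPM. Plasmacytoid dendritic cell markers summed to 518, 277, 207 and 2852 CPM, of which Bst2, itself an interferon-stimulated gene, made up 476, 236, 168 and 2779 CPM. The part of these cells in the differences above was not tested.

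Macrophage markers were higher in both knockouts for 2 of 19 tested genes, no larger a share than the 12.6% of all tested genes. In knockout 2, 7 of them were at least 2-fold above every other library (8.53% of all tested genes). After removal of the length trend 2 of them were, against 6.08% of all tested genes. The complement gene C1qb stood at 3.29, 45.6, 27.2 and 155 CPM, so that the controls differed more than 10-fold from each other. The high-affinity Fc receptor gene Fcgr1, which interferon induces, stood at 67.7, 132, 101 and 1575 CPM.

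**Figure D5:**
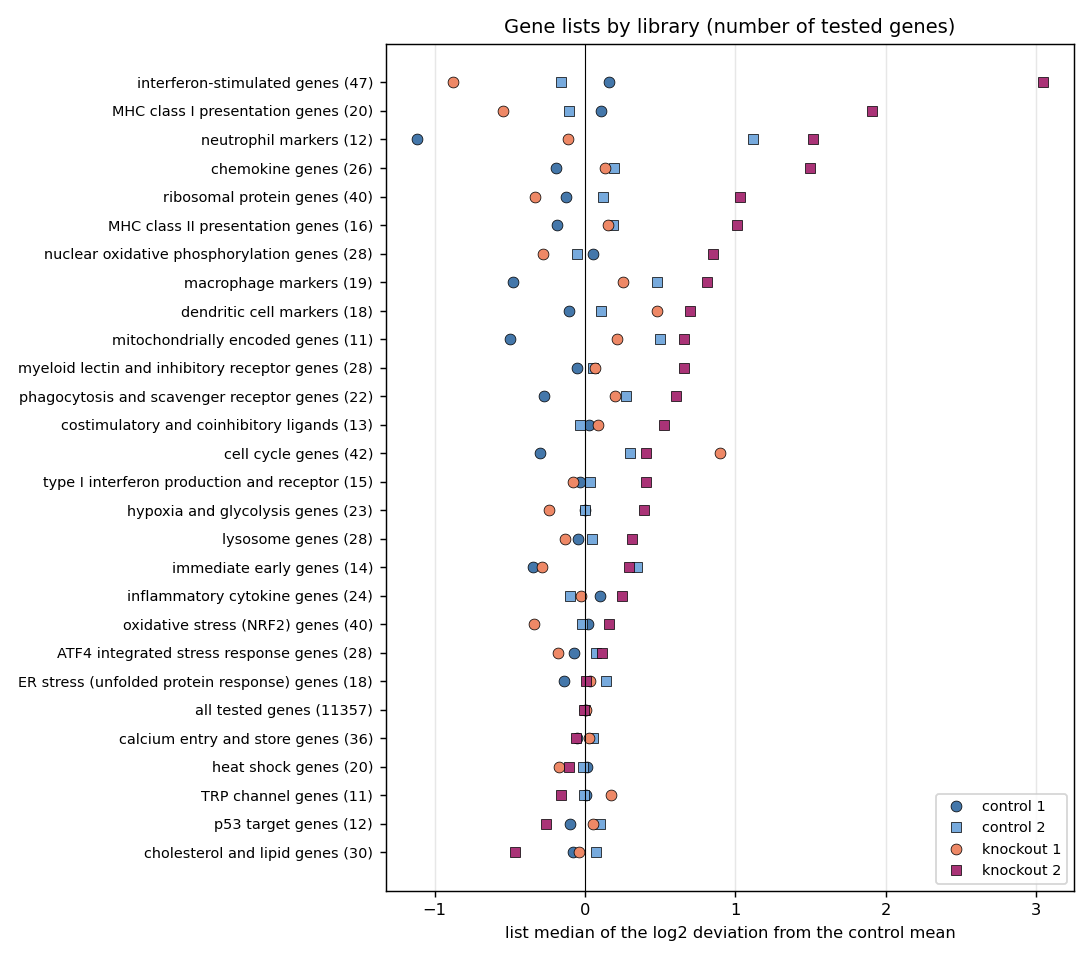
Median log2 deviation from the control mean of each gene list in each library, with the number of tested genes in brackets; lists of 10 or more genes are shown. Interferon-stimulated genes lie at −0.88 in knockout 1 and 3.05 in knockout 2, cell cycle genes are above both controls in both knockouts (for knockout 2 not with the length trend removed), and heat shock genes are the stress list below both controls in both.

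Calcium is among the ions that the channel conducts. Of 36 tested genes of calcium entry and stores 6 were higher and 4 lower in both knockouts, near the 12.6% of all tested genes in each direction, with 0 shifted by 1.5-fold and a median log2 fold change of −0.01. The store-operated channel gene Orai1 stood at 64.4, 86.5, 88.3 and 151 CPM, and the mitochondrial uniporter gene Mcu at 19.5, 21.4, 18.8 and 17.9 CPM. The UDP receptor gene P2ry6 stood at 29.2, 38.1, 50.8 and 91.0 CPM and the nucleotide receptor gene P2ry2 at 67.6, 60.4, 46.9 and 45.4 CPM. Of 11 tested TRP channel genes 2 were lower in both knockouts, Trpv2 itself and the endolysosomal channel gene Mcoln3 (21.3, 30.3, 21.2 and 14.2 CPM), and 1 was higher (Mcoln1, 129, 107, 132 and 161 CPM), counts too small to set apart from that background. Trpm7, a long transcript, was low in knockout 2 alone, at 106, 105, 133 and 33.7 CPM.

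The knockout effect in GM-CSF was set against that in M-CSF cultures in 1 fit of all 8 libraries over genes in both tables. No difference passed: 0 of 11671 genes by edgeR's quasi-likelihood interaction test (0%), with 225 at an unadjusted p under 0.05 (1.93%) and 0 by limma-voom (0%). For Trpv2 the difference, GM-CSF minus M-CSF, was 1.11 on the log2 scale (SE 0.40, adjusted p = 0.84 by edgeR), beside M-CSF control levels of 273 and 277 CPM and M-CSF knockout levels of 26.4 and 29.2 CPM. Nqo1 stood at 31.0, 26.5, 26.8 and 34.8 CPM in M-CSF controls 1 and 2 and knockouts 1 and 2, and its difference was −1.001 (SE 0.33, adjusted p = 0.84 by edgeR). Gclm there stood at 347, 377, 432 and 362 CPM, and Txnrd1 at 451, 504, 471 and 477 CPM. The M-CSF groups overlapped for both genes. Clec12a stood at 411, 355, 319 and 324 CPM in M-CSF, above every GM-CSF library, and its difference was 1.72 (SE 0.35, adjusted p = 0.84 by edgeR). Isg15 stood at 158, 63.7, 82.3 and 130 CPM there, with knockouts inside the range of the controls.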

How the data were processed

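Messenger RNA was made into strand-marked libraries (TruSeq Stranded mRNA), per the labels' protocols. Reads were trimmed with cutadapt and counted per gene with HTSeq, per the submitters' processing notes, which list both GRCm38 and GRCm39; the aligner and the strand setting are not given in the sources used here. Counts were deposited as whole reads per gene, without normalization, in 1 table per culture type. The deposited FPKM values, scaled by the authors to gene length and library total, were not tested. The deposited table also holds the authors' scaled mean signal per group, a knockout over control fold ratio, the log2 of that ratio, and the p-value before and after adjustment; log2 and p are printed only where the authors' deposited table is named.

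Counts were tested with edgeR 4.0.16 (R 4.3.3) by its quasi-likelihood test, with TMM scaling, filterByExpr (minimum count 10) and Benjamini-Hochberg adjustment over all tested genes; only the 4 GM-CSF libraries entered this fit. SE is the size of the log2 fold change divided by the square root of F. Gaps between libraries and deviations from the control mean were taken on log2(CPM + 0.5). The difference between culture types was an interaction term in a fit of 8 libraries. The length trend was removed per library with lowess (span 0.3). With 2 mice per group, p-values rest on the spread between these libraries. The fitting code was tested on simulated data. An upper limit for 0 reads is 3 reads and covers counting error only.

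The genes and lists were chosen with earlier results of these data known. Named genes were Trpv2, Lyz2, Lyz1 and Lrmda, the genes with the smallest p, the genes with the largest gaps (both knockouts from both controls, or 1 knockout from the rest, at a mean of at least 1 CPM), all oxidative stress and heat shock genes, and up to 4 members a direction of each other list. Some other genes were chosen after their values were seen. Alternatives used limma 3.58.1 (voom), DESeq2 1.42.0, other scalings and filters, gap sizes of 2-fold and 4-fold, a replicate block, and each library left out in turn.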

Additional observations from a re-analysis of the deposited data

How the results depend on the processing

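The count of genes past 0.05 by edgeR was 0 and stayed 0 with limma-voom, edgeR's robust option, RLE size factors, library totals only, a gene-length offset, a filter at 1 CPM and a fold threshold. It was 6 with DESeq2, 1 (Lyz2) with limma-voom with sample quality weights, 1 (Lyz2) with no low-count filter and 1 (Lyz2) in the joint fit of 8 libraries. With a replicate block it was 2 (Lyz2 and Ccl12); same-numbered libraries did not deviate together (r = −0.00741 across genes), so the numbers were not taken to pair mice. Leaving out each library gave 0 to 3215 genes: 5 without control 1, 16 without control 2, 3215 without knockout 1 and 0 without knockout 2. A lone library is then assumed to vary like the other group. The count for the difference between culture types was 0 and ranged from 0 to 3733, the latter without GM-CSF knockout 1.

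Genes shifted alike numbered 115 higher and 28 lower; with any gap they numbered 1433 and 1426, and with a gap of 2-fold 26 and 6. Leaving out a library, a choice made after seeing the data, gave 310 to 2394 higher and 148 to 2586 lower. The 969 genes apart upward in knockout 2 became 399 with library totals only and 136 at a gap of 4-fold. The 1168 apart downward became 2257 with library totals only, 695 with the length trend removed and 67 at a gap of 4-fold. Library totals only moved the median log2 fold change of all genes from 0.02 to −0.10. With a library left out, a gene has fewer libraries to clear, so list counts can rise but not fall. Oxidative stress genes lower in the knockouts numbered 13 to 30 (12 with all) and heat shock genes lower 6 to 14 (4 with all). Cell cycle genes higher numbered 16 to 33 (16 with all). Of all tested genes, 12.6% lay in each direction with all libraries. Without knockout 2, 31.7% lay below both controls and 32.3% above both. The highest count of each list came without knockout 2. The cause was not tested. For 47 named genes, 0 of 704 alternative values reversed direction. These genes were taken from those whose groups did not overlap in these data, so reversals were unlikely from the start.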
